A study of Mus musculus with 5 samples.

Results

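Mast cells were a rare population of the neonatal mouse growth plate preparations, and they were selected on their own transcripts. A kept cell was chosen when Cpa3, Mcpt4 and Cma1 together gave at least 5 unique molecular identifiers (UMIs, each standing for 1 captured transcript), Kit gave at least 1, and Col2a1, the cartilage collagen gene, gave fewer than 200 per 10000 UMIs of the cell. The rule found 57 of 82516 kept cells (0.0691%, exact 95% binomial interval 0.0523 to 0.0895%). Because the rule read the measured counts, the levels of these genes, and of genes that travel with them, describe the members and are no independent evidence of what they are.

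The cells came from the femoral and tibial growth plate cartilage of 5 pups of C57BL/6J background, and each pup gave 1 BD Rhapsody library. Pups 1 and 2 were labelled wild type (WT). Pups 3, 4 and 5 were labelled mutant and carried a Trpv4 p.R594H conditional knock-in recombined by Col2a1-Cre, a transgene driven by the promoter of a cartilage collagen gene and active in chondrocytes. The paper states that the Col2a1-Cre line was first made in B6SJLF1 mice and later crossed to C57BL/6J. The pups may thus not be pure C57BL/6J. The sample labels give postnatal day 5 and the series text day 3, and the labels name the cells chondrocytes. Library totals lay between 117746735 and 183322632 UMIs, and the 57 members held 534501 UMIs over 12808 of the 29818 genes. Their median was 7937 UMIs a cell, beside 8281.5 in 656 macrophages and 5431 in 265 granulocyte lineage cells, the classes used for comparison. Each pair of libraries shared between 3 and 7 cell barcodes, and 0 barcodes of a mast cell occurred in another library.

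Mast cells are long-lived tissue cells of the blood lineage that depend on the KIT receptor and its ligand, stem cell factor. They store histamine and proteases bound to heparin in secretory granules and release them when antigen cross-links IgE on the high-affinity IgE receptor, or when a ligand binds a Mas-related receptor. In the mouse, connective tissue mast cells hold carboxypeptidase A3 (Cpa3), the chymases Mcpt4 and Cma1 and the tryptases Tpsb2 and Tpsab1, whereas mucosal mast cells are known for Mcpt1 and Mcpt2.

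The members fell into 2 sets that did not overlap. In 51 of them both Mcpt4 and Cma1 gave UMIs, and these are called protease-rich below. In them Cpa3, Mcpt4 and Cma1 together gave from 350 to 1922 UMIs with a median of 892. The other 6 members passed with Cpa3 alone, at 7 to 36 UMIs, and gave 0 UMIs of Mcpt4, Cma1, Tpsb2, Tpsab1 and Mrgprb2. No member lay between 36 and 350 UMIs.

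These 6 members go against the label in part. Of other genes listed for mast cells, Hdc gave UMIs in 6 of them, Gata2 in 5, Ms4a2 in 3 and Slc18a2 in 3. Ms4a2 stood at 645 CPM (UMIs per 1000000 UMIs of the pooled cells) in the 6 and 657 CPM in the 51. All 6 held Mpo, the myeloperoxidase of developing granulocytes, at 19 to 126 UMIs, and Ctsg, a granule protease of mast cells and neutrophil precursors, at 4 to 34 UMIs, whereas Mpo gave 0 UMIs in the 51 protease-rich cells. They were deep cells, with 16672 to 23524 UMIs against 4091 to 16784, and Mki67 and Top2a, genes of dividing cells, gave UMIs in 6 of 6. A pair of them, with 33 and 36 Cpa3 UMIs, also held the IgE receptor gene Ms4a2 at 40 and 30 UMIs and the basophil protease gene Mcpt8 at 48 and 29. Of the 8 members of WT pup 1, 5 were of this kind, as was 1 of the 26 of WT pup 2. In WT pup 1 they supplied 94369 of the 121728 UMIs behind the WT pup 1 values, so levels below are given for the 51 protease-rich cells unless all 57 members are named.

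**Figure D1:**
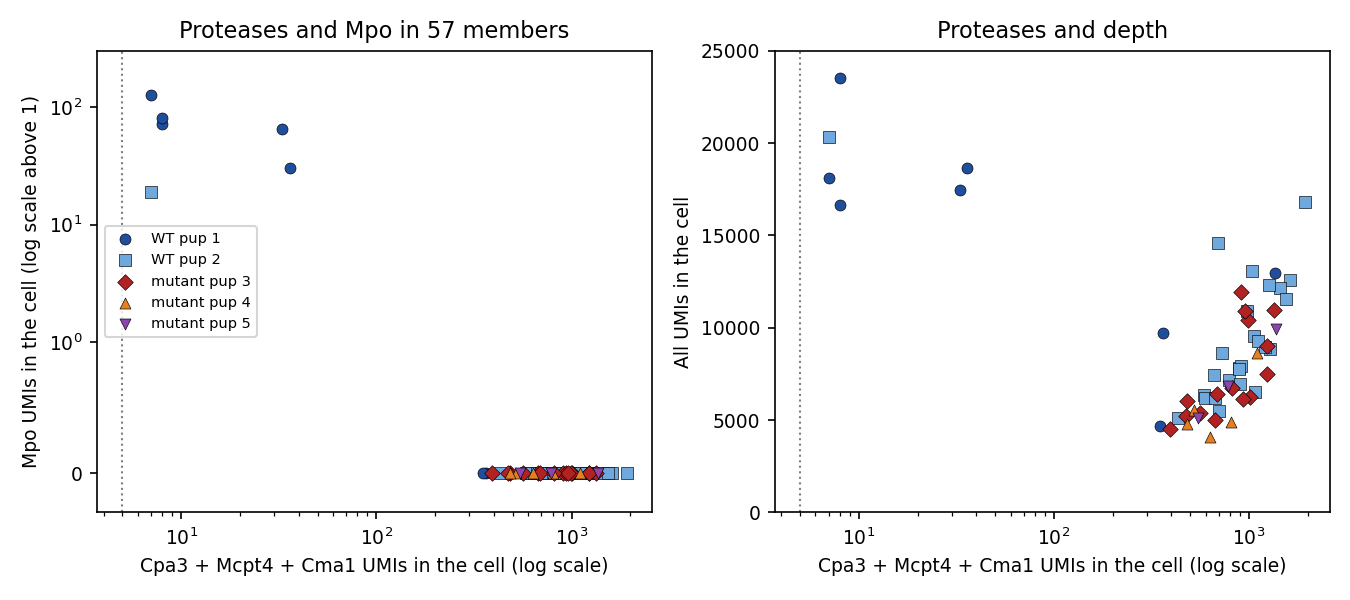
Each point is 1 of the 57 members, marked by library; the x axis is the summed Cpa3, Mcpt4 and Cma1 UMIs (log scale, dotted line at the limit of 5) and the y axes are Mpo UMIs and all UMIs of the cell. The 6 members with at most 36 protease UMIs all hold Mpo and at least 16672 UMIs, and the 51 with at least 350 hold none of it.

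The limits of the rule met few cells. Just inside stood members with 7, 7, 8 and 8 protease UMIs. Just outside stood 4 cells with Kit and 2 or 3 protease UMIs and 16 with 1, none of which held both Mcpt4 and Cma1. Another 15 cells had enough protease UMIs but no Kit, with 5 to 85 protease UMIs and a median of 7, and 2 of these held both Mcpt4 and Cma1. A further 4 cells passed both of those limits with 558 to 1703 protease UMIs but had Col2a1 at 222 to 593 per 10000 UMIs, beside 193 in the highest member. Another 1, with 891 protease UMIs, was removed by the filters on genes and mitochondrial UMIs.

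Markers of macrophages and granulocytes were nearly absent from the protease-rich cells. Of 8 macrophage markers, C1qa, C1qb, C1qc and Ms4a7 gave 0 UMIs, and the list summed to between 0 and 35.6 CPM (UMIs of a gene per 1000000 UMIs of the pooled cells) by library, against 8045 to 9288 CPM in macrophages. All 9 granulocyte lineage markers gave 0 UMIs in the protease-rich cells, against 65833 to 107846 CPM in granulocyte lineage cells. C1qa, C1qb, C1qc and Csf1r chose the macrophages, and all granulocyte markers but Retnlg chose the granulocyte lineage cells. Col2a1 likewise set chondrocytes apart from the members. The high sums in these classes were thus bound to follow and describe the classes only. Over all 57 members the granulocyte list reached 3187 CPM in WT pup 1 through its 5 other members. In the pool of the 57, Mpo made up 733 of the 763 CPM of the list. S100a9, Ngp, Camp, Ltf and Retnlg gave 0 UMIs there. Lymphoid markers summed to 0 to 122 CPM by library, against 12.8 to 96.9 CPM in macrophages. Skeletal muscle markers gave 0 UMIs and Schwann cell markers 19.1 CPM. Chondrocyte markers summed to 1001 to 3078 CPM by library and overlapped macrophages (1214 to 2867 CPM), against 119674 to 139317 CPM in chondrocytes. Connective tissue markers summed to 14323 CPM in the pool and 1370 to 41339 CPM by library, against 6371 to 15297 CPM in macrophages and 23621 to 34113 CPM in chondrocytes. No member met the macrophage or granulocyte rule, and 7 met the connective tissue rule (Col1a1 of at least 50 per 10000 UMIs), 6 of them protease-rich.

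The number of members differed between pups of the same genotype. WT pup 1 held 8 of 15121 kept cells, WT pup 2 held 26 of 16561, and the mutant pups 3, 4 and 5 held 15 of 19133, 5 of 17887 and 3 of 13814. Counting the protease-rich cells alone, the shares were 0.0198% (exact 95% binomial interval 0.00409 to 0.0580%) and 0.151% (0.0977 to 0.223%) in the WT pups. In the mutant pups they were 0.0784% (0.0439 to 0.129%), 0.0280% (0.00908 to 0.0652%) and 0.0217% (0.00448 to 0.0635%). For the protease-rich cells the lowest and the highest share were both in WT pups. With all members the WT pups stood at 0.0529% and 0.157%, and the lowest share was in mutant pup 5 (0.0217%). The groups overlapped either way, and genotype was not tested on so few cells. Over all libraries the protease-rich share was 0.0618%, and 0.0394% without WT pup 2. The intervals cover counting error only.

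**Figure D2:**
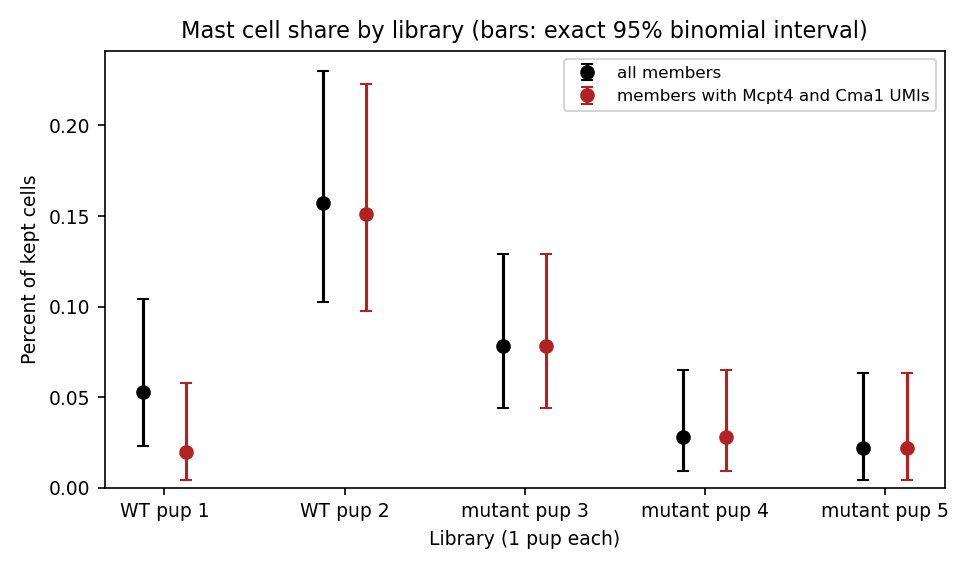
The y axis is the percent of kept cells that were mast cells in each library, for all members (black) and for the protease-rich members (red), with exact 95% binomial intervals. WT pup 2 has the highest share, and the lower end of its interval (0.0977% for the protease-rich cells) lies below the upper end of that of mutant pup 3 (0.129%).

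Granule protease genes, those of the rule among them, took a large share of the RNA of these cells. The 15 listed protease genes, of which 14 are in the files, took 10.5% of all UMIs of the 57 members and 13.3% in the protease-rich cells. Carboxypeptidase A3, which trims peptides in the granule, stood at 30484 and 42712 CPM in WT pups 1 and 2 and 43124, 58842 and 59608 CPM in mutant pups 3, 4 and 5. The chymase Mcpt4 stood at 27888 and 45414 CPM in WT pups 1 and 2 and 48729, 49476 and 43256 CPM in mutant pups 3, 4 and 5. The other rule chymase, Cma1, ranged from 17508 to 20899 CPM. WT pup 1, with 3 protease-rich cells, was lowest for all 3 genes, and WT pup 2 lay inside the range of the mutant pups for Mcpt4 and Cma1 and just below it for Cpa3. Of the 27359 protease-rich UMIs of WT pup 1, 12965 and 9711 came from cells that met the connective tissue rule. All WT pup 1 levels of protease-rich cells rest largely on these. Of 3155 genes with at least 50 CPM in the protease-rich pool, both WT values lay below the 3 mutant values in 7.86% and above them in 10.8%. Xist, transcribed from the inactive X chromosome of females, gave 120 and 23 UMIs in the members of mutant pups 3 and 4 and 0 in those of the other pups, and the labels used here do not give sex. Its part in any difference between pups was not tested, nor was genotype. In macrophages the protease genes Cpa3, Mcpt4 and Cma1 stood at 0, 0.67 and 0.335 CPM and in granulocyte lineage cells at 0.95, 0 and 0 CPM. That background holds for these classes only. A cell of WT pup 2 with 0 Kit UMIs, for example, held 85 Cpa3 UMIs of 10651.

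The tryptases were not used by the rule. Tpsb2 stood at 19226 and 21665 CPM in WT pups 1 and 2 and 21104, 13298 and 17814 CPM in mutant pups 3, 4 and 5 and gave UMIs in 51 of the 51 protease-rich cells, which were set apart by other granule proteases. Tpsab1 ranged from 786 to 2198 CPM and was found in 50 of the 51 cells. Tpsg1, a membrane-anchored tryptase, gave UMIs in 27 cells and Cma2 in 33. The mucosal proteases Mcpt1 and Mcpt2 gave 3 and 17 UMIs in all, in 2 and 11 cells. The basophil protease Mcpt8 gave 4 UMIs in the protease-rich cells and 85 in the 6 others. Mcpt1, Mcpt2 and Mcpt4, Cma1 and Cma2, and Tpsb2 and Tpsab1 are close relatives in sequence, and how reads shared by them were assigned is not given in the sources used here, so the low members of each pair are uncertain. Apart from the genes of the rule, 5 of the 15 could be tested against each class as set out below, and Tpsb2 and Tpsab1 were higher in both comparisons, Ctss was lower in both and Ctsg was higher than in macrophages (log2 difference 10.94 ± 1.37 (SE), edgeR adjusted p = 0.00019).

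Upstream sequence is shown for the 3 protease genes of the rule and for Ms4a2, because GATA2, whose gene was high in these cells (below), binds the core letters GATA. Each run is the 250 bases before the RefSeq transcript start (GRCm38.p6), read 5′ to 3′ on the gene's strand, and capitals mark AGATAA or TGATAA on either strand (TTATCT or TTATCA when read on the other). Cpa3 lies on the minus strand at chr3:20242182-20242431, Mcpt4 on the minus strand at chr14:56062311-56062560, Cma1 on the minus strand at chr14:55944676-55944925 and Ms4a2 on the minus strand at chr19:11623720-11623969.
Cpa3: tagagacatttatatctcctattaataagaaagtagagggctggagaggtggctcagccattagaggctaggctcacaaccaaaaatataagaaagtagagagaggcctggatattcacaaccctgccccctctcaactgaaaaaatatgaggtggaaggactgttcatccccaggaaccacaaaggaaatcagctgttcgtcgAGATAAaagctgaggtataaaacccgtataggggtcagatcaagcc
Mcpt4: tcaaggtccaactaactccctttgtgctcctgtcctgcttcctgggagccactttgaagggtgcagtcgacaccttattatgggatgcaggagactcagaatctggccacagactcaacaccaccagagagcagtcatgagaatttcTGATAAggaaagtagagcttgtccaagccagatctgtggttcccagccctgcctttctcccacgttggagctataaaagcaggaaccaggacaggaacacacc
Cma1: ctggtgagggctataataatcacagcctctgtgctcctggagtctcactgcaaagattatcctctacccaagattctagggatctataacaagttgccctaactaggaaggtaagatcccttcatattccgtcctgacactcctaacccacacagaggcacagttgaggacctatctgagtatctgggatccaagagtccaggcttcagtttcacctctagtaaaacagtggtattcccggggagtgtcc
Ms4a2: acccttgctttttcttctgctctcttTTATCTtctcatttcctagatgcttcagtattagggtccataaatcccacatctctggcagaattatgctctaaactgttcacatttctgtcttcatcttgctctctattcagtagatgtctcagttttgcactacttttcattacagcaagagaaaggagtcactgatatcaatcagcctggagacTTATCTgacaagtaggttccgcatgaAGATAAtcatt
The match in Cpa3 spanned 46 to 41 bases before the start and that in Mcpt4 103 to 98 bases. Ms4a2 held 3 matches, and Cma1 held neither AGATAA nor TGATAA. The Cma1 run does hold the core GATA on the other strand (tatc), which alone was not counted as a match. Of 24 mast cell genes looked up, 20 had an entry and 9 held a match in at least 1 of their windows (10 of 27 windows), among them Tpsg1, Prss34, Slc18a2, Fcer1a, Il1rl1 and Mrgprb2. Among all 32851 windows of this length 16.6% held a match. CATGTG or CACGTG, letters bound by MITF, occurred in 5 of the 27 windows and in 17.6% of all. These matches describe letters only.

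The 20 leading genes of the pooled members were those with the largest ratio of CPM, after adding 1, to all other kept cells. The genes of the rule were left out, and 2422 genes with at least 50 CPM and a UMI in the members of every library were ranked. They were, in order, Tpsb2, Mrgprb1, Tpsab1, Mrgprb2, Hdc, Adora3, Cyp11a1, Slc18a2, Il1rl1, Gpr141b, Ms4a2, Gata2, Prss34, Serpinb1a, Gpr65, Il4, Slco2b1, Atp8b5, Cd200r3 and Maob. The ratio ran from 6679 for Tpsb2 to 266 for Maob, which codes for a monoamine oxidase. Of the 20, 17 had a UMI in at least 50 members. The other 3 were Prss34 (27 members), Slco2b1 (39), a transporter gene, and Il4 (42). The members were chosen on transcripts that accompany these genes, so that this order is a description.

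Members were next compared with macrophages and with granulocyte lineage cells of the same pups, 2 other myeloid classes of these preparations. UMIs were summed per pup and class and tested with edgeR's quasi-likelihood test with the pup as a block and Benjamini-Hochberg adjustment. The genes that chose the classes were in the fit but are left out of the counts of genes. Of 4967 genes tested, 577 were higher in all 57 members than in macrophages (11.6%) and 953 were lower (19.2%), with a median log2 difference of −0.12. Of 4963 genes tested, 592 were higher than in granulocyte lineage cells (11.9%) and 735 were lower (14.8%), with a median of 0.00067. WT pup 2 supplied 26 of the members, and without it the counts were 381 and 625 against macrophages and 290 and 419 against granulocyte lineage cells. With the 51 protease-rich cells alone they were 619 and 987, and 654 and 783. In what follows the log2 differences and their tests are for all 57 members, and the CPM of mast cells are for the 51. The value marked SE is an approximation throughout, the size of the log2 difference divided by the square root of the test's F statistic. It is not a standard error estimated by edgeR. The shares of all genes tested given above are the background for each count of listed genes. The filter on low counts passes a gene that is high in 1 class only, so that a gene of mast cell identity that passed was bound to differ. Hdc, Il1rl1, Rab27b, Il4 and Ctsg, for example, gave 10, 76, 24, 16 and 1 UMIs in all macrophages. Their p-values against macrophages describe the members only. The same holds for Rab27b against granulocyte lineage cells, where it gave 11 UMIs.

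The largest differences were in genes that 1 class held and the other lacked. Against macrophages, with at least 50 CPM in the higher class, these were Tpsb2, Prss34, Mrgprb2, Tpsab1 and Mrgprb1. Mrgprb2, the receptor for basic secretagogues, and Prss34, a tryptase-like protease, gave 0 UMIs in macrophages and were at least 2133-fold higher and at least 2404-fold higher by pooled CPM, taking 3 counts as the floor of the whole class. The 5 lowest were Pf4, Lyve1, Lgmn, Ednrb and Stab1, with 1783 CPM of Pf4 and 1368 CPM of Lyve1, a marker of perivascular macrophages, in macrophages. All 5 gave 0 UMIs in the 57 members, which puts Pf4 at least 318-fold lower and Stab1 at least 169-fold lower.
Against granulocyte lineage cells the 5 largest were Tpsb2, Mrgprb1, Prss34, Mrgprb2 and Slc18a2, all at 0 UMIs in those cells. Tpsb2 was at least 11351-fold higher and Slc18a2 at least 558-fold higher by the same floor. Retnlg, Cstdc5, Stfa2, Cstdc4 and Stfa2l1, genes of maturing neutrophils, gave 0 UMIs in the members against 4460 to 10435 CPM in granulocyte lineage cells.

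**Figure D3:**
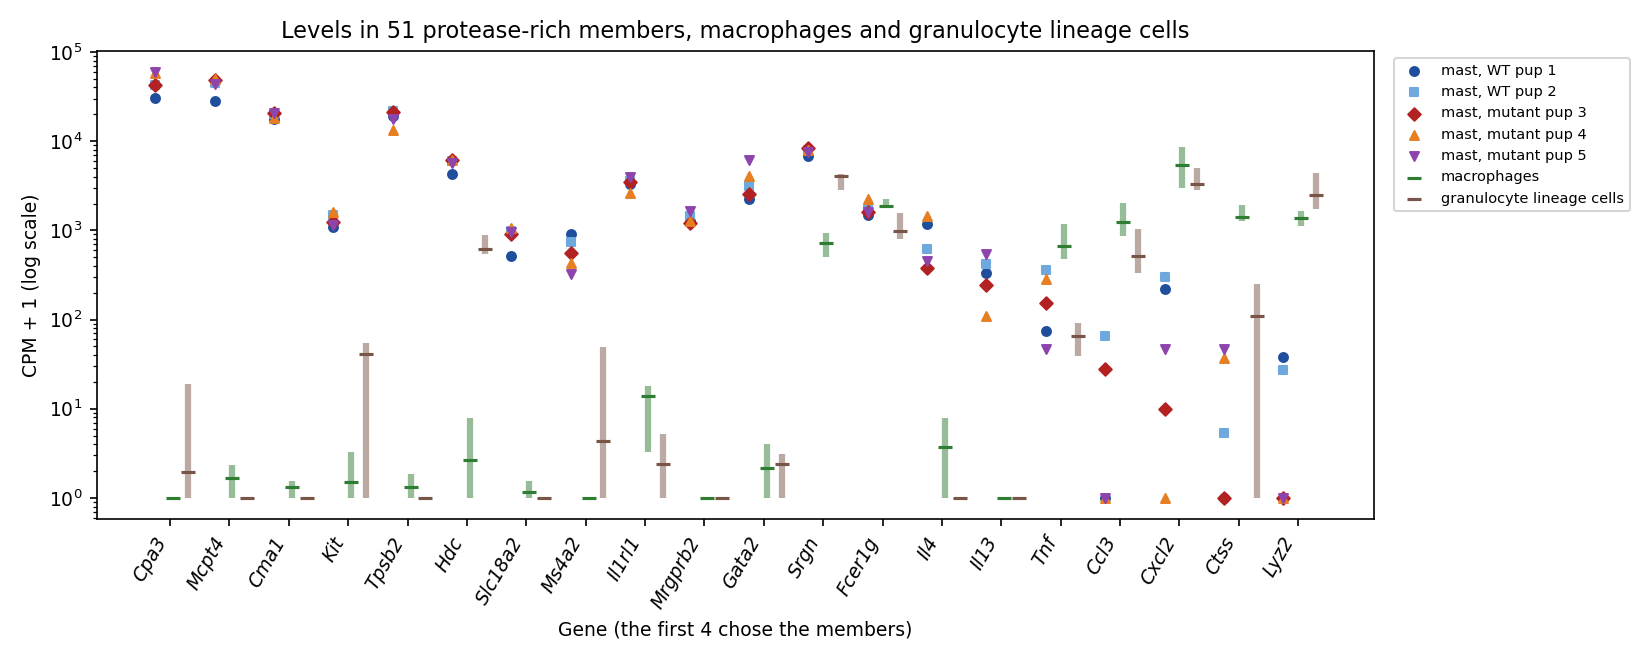
The y axis is CPM + 1 (log scale) of 20 genes; coloured points are the 51 protease-rich members summed in each of the 5 libraries, and green and brown marks with bars are the pooled value and the range over libraries in macrophages and granulocyte lineage cells. The first 4 genes chose the members; by pooled level Ccl3, Cxcl2, Ctss and Lyz2 lie lower in mast cells than in both other classes, and Fcer1g lies near 1703, 1858 and 986 CPM in mast cells, macrophages and granulocyte lineage cells.

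Granule structure genes were more often higher than lower in mast cells. Of 16 listed genes 15 were tested, and 9 were higher and 2 lower than in macrophages, with a median log2 difference of 2.42. Against granulocyte lineage cells 7 were higher and 2 lower, with a median of 0.85. The shares of all genes tested were 11.6% higher and 19.2% lower than in macrophages, and 11.9% and 14.8% than in granulocyte lineage cells. The 2 lower in each comparison are near those shares. Srgn codes for serglycin, the core protein that carries heparin, and stood at 6908 and 8037 CPM in WT pups 1 and 2 and 8470.0, 7900.5 and 7628 CPM in mutant pups 3, 4 and 5. It was higher than in macrophages at 716 CPM (log2 difference 3.30 ± 0.28 (SE), edgeR adjusted p = 2.37e-10). Against granulocyte lineage cells at 4088 CPM the difference was smaller (log2 difference 0.85 ± 0.26 (SE), edgeR adjusted p = 0.015), and it lost its call without WT pup 2 (0.0553), without mutant pups 3 (0.0895) or 4 (0.0844) and with no filter on low counts (0.228), which are adjusted p from edgeR.

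Enzymes that build and sulphate heparin were among those that passed. Ndst2, the N-deacetylase/N-sulphotransferase of mast cell heparin, ranged from 179 to 411 CPM by library, against 13.1 CPM in macrophages (log2 difference 4.37 ± 0.43 (SE), edgeR adjusted p = 5.71e-09) and 7.13 CPM in granulocyte lineage cells (log2 difference 4.54 ± 0.53 (SE), edgeR adjusted p = 1.68e-07). Ext1, a chain polymerase, stood at 436 CPM, against 71.9 CPM in macrophages (log2 difference 2.12 ± 0.33 (SE), edgeR adjusted p = 8.86e-06) and 39.4 CPM in granulocyte lineage cells (log2 difference 2.66 ± 0.37 (SE), edgeR adjusted p = 2.25e-06). Hs3st1, a 3-O-sulphotransferase, stood at 469 CPM and gave 0 and 1 UMI in the other classes. Ndst1, the more widely expressed relative of Ndst2, stood at 45.3 CPM and passed in neither comparison.

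Of the secretion machinery, Rab27b, a GTPase of granule exocytosis, stood at 960.0 CPM and was higher than in macrophages (log2 difference 7.67 ± 0.39 (SE), edgeR adjusted p = 4.2e-15) and in granulocyte lineage cells (log2 difference 6.28 ± 0.43 (SE), edgeR adjusted p = 2.98e-12). Its relative Rab27a stood at 21.4 CPM, from 9 UMIs, and was higher than in macrophages at 2.68 CPM (log2 difference 3.62 ± 0.64 (SE), edgeR adjusted p = 5.02e-05). Against granulocyte lineage cells at 105 CPM it was lower (log2 difference −1.38 ± 0.48 (SE), edgeR adjusted p = 0.0314), a call lost without WT pup 2 (0.316) or mutant pup 3 (0.0895). The fusion genes Vamp8 and Stxbp2 were called in neither comparison. Serpinb1a, an inhibitor of chymotrypsin-like proteases, ranged from 2376 to 4294 CPM, against 16.8 and 621 CPM in the 2 other classes, and was higher than in both (log2 difference 7.35 ± 0.56 (SE), edgeR adjusted p = 2.94e-08 and log2 difference 2.54 ± 0.48 (SE), edgeR adjusted p = 0.000661). Lyz2, Ctss and Lamp1 of the listed genes were lower than in macrophages. The lysosomal genes Ctsd and Cd63 of the same lists were not called against macrophages with all 57 members, and Cd63 was higher with the 51 protease-rich cells (edgeR adjusted p = 0.0146). Lyz2, coding for lysozyme, stood at 16.7 CPM against 1388 CPM in macrophages (log2 difference −6.01 ± 0.47 (SE), edgeR adjusted p = 3.97e-11) and 2495 CPM in granulocyte lineage cells (log2 difference −7.04 ± 0.47 (SE), edgeR adjusted p = 2.03e-12). Cathepsin S (Ctss) gave 3 UMIs in all members against 1425 CPM in macrophages (log2 difference −7.98 ± 0.59 (SE), edgeR adjusted p = 4.36e-11), and Lamp1 stood at 143 against 984 CPM (log2 difference −2.93 ± 0.33 (SE), edgeR adjusted p = 4.91e-08).

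Hdc, Slc18a2 and Tph1, genes of histamine and serotonin handling, were higher in mast cells than in both other classes. Of 13 listed genes 11 were tested, with 5 higher and 3 lower in each comparison and medians of −0.12 and 0.08. The shares of all genes tested were 11.6% higher and 19.2% lower than in macrophages, and 11.9% and 14.8% than in granulocyte lineage cells. Hdc, histidine decarboxylase, which makes histamine, stood at 4313 and 5995 CPM in WT pups 1 and 2 and 6094, 6185 and 5664 CPM in mutant pups 3, 4 and 5. All 57 members held it. It was higher than in macrophages at 1.68 CPM (log2 difference 11.37 ± 0.52 (SE), edgeR adjusted p = 2.36e-15) and than in granulocyte lineage cells at 618 CPM (log2 difference 2.58 ± 0.33 (SE), edgeR adjusted p = 8.3e-07). Slc18a2, the transporter that loads histamine and serotonin into granules, stood at 934 CPM, with 1 UMI in all macrophages and 0 in granulocyte lineage cells. Tph1, which makes serotonin, gave UMIs in 27 of the 51 cells, and Cyp11a1, the side-chain cleavage enzyme of steroid synthesis, in 50.

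Hpgds, the prostaglandin D2 synthase, stood at 259.6 CPM and was higher than in granulocyte lineage cells at 3.8 CPM (log2 difference 5.06 ± 0.56 (SE), edgeR adjusted p = 5.99e-08). In macrophages it stood at 324 CPM, and the lower level passed with all 57 members (edgeR adjusted p = 0.0145) but not with the 51 (0.128), nor without WT pup 1 (0.0554), mutant pup 4 (0.0638) or mutant pup 5 (0.0505), nor without the pup as a block (0.0575). Alox5 and Alox5ap, which start leukotriene synthesis, stood at 121 and 150.1 CPM, against 126 and 521 CPM in macrophages. Ltc4s, the leukotriene C4 synthase, gave 1 UMI in the 57 members, which is under the floor of 3 counts (5.61 CPM).

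The 3 genes of the IgE receptor were detected in 47, 17 and 51 of the 51 cells. Ms4a2, the beta chain, stood at 914 and 734 CPM in WT pups 1 and 2 and 561, 429 and 319.7 CPM in mutant pups 3, 4 and 5. Both WT values lay above the 3 mutant values, as in 10.8% of genes, and those of WT pup 1 and mutant pups 4 and 5 rest on 25, 12 and 7 UMIs. Fcer1a, the alpha chain that binds IgE, gave 59 UMIs in 17 cells, with 141 CPM in the pool and a range of 35.7 to 621 CPM by library. The highest value rests on 17 UMIs of 1 cell of WT pup 1, which also met the connective tissue rule. The lowest rests on 1 UMI of mutant pup 4. Ms4a2 and Fcer1a both gave 0 UMIs in macrophages. Fcer1g, the signalling gamma chain shared with other Fc receptors, stood at 1703 CPM, against 1858 and 986 CPM, and passed in neither comparison.

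Of the 20 listed genes of the IgE receptor and its signalling, 16 were tested, with 6 higher and 0 lower than in macrophages by edgeR (median 0.57) and 5 higher and 0 lower than in granulocyte lineage cells (median 0.23). The shares of all genes tested were 11.6% higher and 19.2% lower than in macrophages, and 11.9% and 14.8% than in granulocyte lineage cells. At an unadjusted p under 0.05, 1 gene was lower in each comparison, and DESeq2 called 0 and 1 lower. With the 51 protease-rich cells 15 were tested, with 8 higher and 1 lower than in macrophages and 5 higher and 1 lower than in granulocyte lineage cells. Lat2, an adaptor of the receptor, stood at 753 CPM and was higher in both (log2 difference 3.01 ± 0.41 (SE), edgeR adjusted p = 8.97e-06 and log2 difference 6.81 ± 0.62 (SE), edgeR adjusted p = 5.42e-08). The kinase gene Fyn stood at 288 CPM and was higher in both (log2 difference 1.78 ± 0.33 (SE), edgeR adjusted p = 0.000104 and log2 difference 3.17 ± 0.41 (SE), edgeR adjusted p = 5.52e-07). Btk, another kinase gene, and Inpp5d, the lipid phosphatase SHIP1, were higher than in granulocyte lineage cells (log2 difference 1.91 ± 0.33 (SE), edgeR adjusted p = 4.76e-05 and log2 difference 1.94 ± 0.36 (SE), edgeR adjusted p = 0.000132). Lyn and Syk, the kinases at the receptor, stood at 209.6 and 114 CPM, against 279.6 and 138 CPM in macrophages, and passed in neither comparison.

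Most genes tested for other receptors passed. Of 25 listed genes 17 were tested, with 10 higher and 6 lower than in macrophages (median 1.57). Against granulocyte lineage cells 11 were higher and 2 lower (median 2.29), or 12 higher and 4 lower with the 51 protease-rich cells. Over all genes tested 11.6% were higher and 19.2% lower than in macrophages, and 11.9% and 14.8% than in granulocyte lineage cells. Il1rl1, the interleukin-33 receptor, stood at 3326 and 3597 CPM in WT pups 1 and 2 and 3488, 2645 and 3928 CPM in mutant pups 3, 4 and 5, with UMIs in all 51 cells, and was higher than in macrophages at 12.7 CPM (log2 difference 8.13 ± 0.37 (SE), edgeR adjusted p = 5.5e-16). Mrgprb1 and Mrgprb2 stood at 2234 and 1365 CPM, each in 51 of 51 cells. The adenosine receptor gene Adora3 stood at 1036 CPM, also in 51 of 51. Csf2rb, the common beta chain for interleukin-3 and GM-CSF, stood at 1508 CPM and was higher than in both other classes (log2 difference 2.99 ± 0.29 (SE), edgeR adjusted p = 2.34e-09 and log2 difference 2.16 ± 0.30 (SE), edgeR adjusted p = 1.56e-06), and its relative Csf2rb2 was higher than in macrophages (log2 difference 3.08 ± 0.33 (SE), edgeR adjusted p = 1.97e-08).

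The adhesion gene Itga4 was higher in both comparisons (log2 difference 1.47 ± 0.31 (SE), edgeR adjusted p = 0.000479 and log2 difference 2.29 ± 0.36 (SE), edgeR adjusted p = 1.27e-05), and the ATP receptor gene P2rx1 was higher than in macrophages (log2 difference 6.47 ± 0.58 (SE), edgeR adjusted p = 6.48e-10). P2rx7, another ATP receptor gene, was lower than in macrophages (log2 difference −2.50 ± 0.48 (SE), edgeR adjusted p = 0.000138), and the inhibitory receptor gene Cd33 was lower than in both (log2 difference −1.23 ± 0.32 (SE), edgeR adjusted p = 0.00302 and log2 difference −2.25 ± 0.32 (SE), edgeR adjusted p = 3.64e-06). The fractalkine receptor gene Cx3cr1 took a middle place, at 109.6 CPM, below macrophages at 250.1 CPM (log2 difference −1.51 ± 0.33 (SE), edgeR adjusted p = 0.000701) and above granulocyte lineage cells at 8.55 CPM (log2 difference 3.32 ± 0.49 (SE), edgeR adjusted p = 4.9e-06). Tlr4, the lipopolysaccharide receptor, Siglece and Itgae gave 0 UMIs in the 57 members, which allows up to 5.61 CPM, beside 57.0 CPM of Tlr4 in macrophages. Cxcr4 gave 0 UMIs in the protease-rich cells, and all 60 of its UMIs came from 4 of the 6 others.

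Kit itself, a gene of the rule, stood at 1097 and 1468 CPM in WT pups 1 and 2 and 1254, 1609 and 1142 CPM in mutant pups 3, 4 and 5, and at 39.9 CPM in granulocyte lineage cells. Of its 15 listed signalling and survival genes 10 were tested, with 2 higher and 5 lower than in macrophages (median −0.36). Against granulocyte lineage cells 2 were higher and 3 lower (median 0.59). Over all genes tested 11.6% were higher and 19.2% lower than in macrophages, and 11.9% and 14.8% than in granulocyte lineage cells. Mcl1, an anti-death relative of Bcl2, stood at 679 CPM and was lower than in macrophages at 1896 CPM (log2 difference −1.62 ± 0.25 (SE), edgeR adjusted p = 6.6e-06). Stat5b was higher and Pik3r1 lower than in macrophages, but neither call held with the 51 protease-rich cells (edgeR adjusted p = 0.146 and 0.0896). Stat5b also lost its call without WT pup 1 (0.103), mutant pup 4 (0.0535), mutant pup 3 (0.108) or a filter on low counts (0.329), and Pik3r1 without WT pup 2 (0.112) or mutant pup 3 (0.135). Kitl, the gene for stem cell factor, gave 0 UMIs in the members. Among the 5 other classes measured it stood highest in endothelial cells, at 428 to 687 CPM by library, against 11.1 to 31.2 CPM in connective tissue cells and 2.87 to 6.05 CPM in chondrocytes, ranges that did not overlap. In macrophages it stood at 39.0 CPM (at most 46.7 by library) and in granulocyte lineage cells at 13.3 CPM (at most 48.9). Il33, the ligand of Il1rl1, was at most 13.7 CPM in any library of the endothelial, connective tissue and chondrocyte classes. Cxcl12 stood at 288 CPM in endothelial and 173 CPM in connective tissue cells.

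Transcription factor genes known from mast cells were detected. Gata2 stood at 2229.6 and 3184 CPM in WT pups 1 and 2 and 2553, 4111 and 6075 CPM in mutant pups 3, 4 and 5 and gave UMIs in all 51 cells, with 7 UMIs in all macrophages and 3 in granulocyte lineage cells. Gata1, its relative of later stages, gave 12 UMIs in 11 of the 57 members. Tal1, a partner of the GATA factors, stood at 102 CPM and was higher than in both other classes (log2 difference 2.93 ± 0.47 (SE), edgeR adjusted p = 1.3e-05 and log2 difference 4.80 ± 0.67 (SE), edgeR adjusted p = 1.9e-06). Mitf, the factor whose loss depletes mast cells, stood at 92.9 CPM, higher than in granulocyte lineage cells (log2 difference 3.11 ± 0.59 (SE), edgeR adjusted p = 0.000157) but at 59.5 CPM in macrophages, where it was not called. Hes1, a target of Notch, ranged from 439 to 836 CPM and was higher in both (log2 difference 4.20 ± 0.40 (SE), edgeR adjusted p = 2.23e-08 and log2 difference 5.05 ± 0.49 (SE), edgeR adjusted p = 3.55e-08).

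The myeloid factor genes Spi1 and Cebpb were lower. Spi1, coding for PU.1, stood at 45.3 CPM and was lower than in macrophages (log2 difference −2.26 ± 0.35 (SE), edgeR adjusted p = 8.79e-06) and in granulocyte lineage cells (log2 difference −2.03 ± 0.37 (SE), edgeR adjusted p = 8.1e-05), and Cebpb, at 267 CPM, was likewise lower (log2 difference −1.47 ± 0.26 (SE), edgeR adjusted p = 5.45e-05 and log2 difference −1.28 ± 0.27 (SE), edgeR adjusted p = 0.000444). Cebpa, which directs granulocyte and monocyte fates, gave UMIs in 1 of the 51 cells and in 5 of the 6 others. Over the list of 16, 13 were tested, with 4 higher and 4 lower than in macrophages (median −0.38) and 5 higher and 2 lower than in granulocyte lineage cells (median 0.29). With the 51 protease-rich cells 14 were tested, and 5 were higher and 5 lower in each comparison. Over all genes tested with all members, 11.6% were higher and 19.2% lower than in macrophages, and 11.9% and 14.8% than in granulocyte lineage cells.

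The type 2 cytokine genes Il4 and Il13 were expressed, and the chemokine genes Ccl3 and Cxcl2 were lower than in both other classes. Il4 stood at 1169.6 and 617 CPM in WT pups 1 and 2 and 374, 1430.0 and 457 CPM in mutant pups 3, 4 and 5 and Il13 at 107 to 548 CPM, and they gave UMIs in 40 and 39 of the 51 cells. After every cell was thinned to 2000 UMIs, 52.9% of the protease-rich cells held Il4 and 45.1% held Il13, against 0.152% and 0% of macrophages and 0% and 0% of granulocyte lineage cells. Il4 was higher than in macrophages at 2.68 CPM (log2 difference 8.04 ± 0.61 (SE), edgeR adjusted p = 3.96e-07). Il5 gave 0 UMIs, which allows up to 5.61 CPM. Osm, oncostatin M, stood at 1262 CPM and was higher than in macrophages at 237 CPM (log2 difference 1.62 ± 0.41 (SE), edgeR adjusted p = 0.00466).

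Ccl3, a macrophage inflammatory protein gene, stood at 42.9 CPM against 1254 CPM in macrophages (log2 difference −4.49 ± 0.39 (SE), edgeR adjusted p = 4.24e-10) and 519 CPM in granulocyte lineage cells (log2 difference −3.41 ± 0.39 (SE), edgeR adjusted p = 9.39e-08). The neutrophil attractant gene Cxcl2 stood at 181 against 5406 and 3331 CPM (log2 difference −5.79 ± 0.59 (SE), edgeR adjusted p = 1.48e-06 and log2 difference −5.52 ± 0.58 (SE), edgeR adjusted p = 2.97e-06). Tnf stood at 262 CPM and was lower than in macrophages at 666 CPM (log2 difference −2.08 ± 0.41 (SE), edgeR adjusted p = 0.000391). Ccl7, a monocyte attractant, stood at 1067 CPM in 24 of the 51 cells and was higher than in granulocyte lineage cells (log2 difference 7.58 ± 1.15 (SE), edgeR adjusted p = 0.000552). Lif, Ccl1 and Areg came from 8, 6 and 1 cells. Of 22 cytokine and growth factor genes 16 were tested, with 4 higher and 7 lower than in macrophages (median −1.75) and 4 higher and 3 lower than in granulocyte lineage cells (median 0.69). The shares of all genes tested were 11.6% higher and 19.2% lower than in macrophages, and 11.9% and 14.8% than in granulocyte lineage cells. The 3 of 16 lower than in granulocyte lineage cells are near that share.

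Trpv4, the gene altered in the mutant pups, gave 4 UMIs in 4 of the 57 members, at 7.48 CPM, against 145 to 216 CPM by library in chondrocytes. Piezo1, a mechanosensitive channel gene, stood at 31.0 CPM, and Trpv2 at 16.7 CPM. Of 12 listed channel genes 5 were tested, with 1 higher (Stim1) and 1 lower (Piezo1) than in macrophages (median −0.13), each lost without WT pup 2 (edgeR adjusted p = 0.12 and 0.0881) or mutant pup 3 (0.0763 and 0.0979), and Piezo1 also without mutant pup 4 (0.0762) or 5 (0.0573). Stim1 was also not called with no filter on low counts (0.126). Over all genes tested 11.6% were higher and 19.2% lower than in macrophages. With 1 of 5 each way, the list is too small to set apart from these shares. Against granulocyte lineage cells edgeR called 0 (median −0.08), with 1 at an unadjusted p under 0.05, and DESeq2 called 1. With the 51 protease-rich cells edgeR called 1 lower.

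Immediate early genes, which respond within minutes to stimulation or handling, were often higher than in granulocyte lineage cells. All 16 listed genes were tested, with 6 higher and 4 lower than in macrophages (median 0.05) and 11 higher and 0 lower than in granulocyte lineage cells (median 1.83), where 1 was lower at an unadjusted p under 0.05 by edgeR. There DESeq2 called 9 higher and 0 lower. By edgeR the shares of all genes tested were 11.6% higher and 19.2% lower than in macrophages, and 11.9% and 14.8% than in granulocyte lineage cells. Fosb stood at 2485 and 5699.6 CPM in WT pups 1 and 2 and 7313, 9152 and 7263 CPM in mutant pups 3, 4 and 5, with both WT values below the 3 mutant values, as in 7.86% of genes and 2 of the 16 listed here. It was higher than in macrophages at 1191 CPM (log2 difference 2.11 ± 0.34 (SE), edgeR adjusted p = 2.71e-05) and granulocyte lineage cells at 386 CPM (log2 difference 3.13 ± 0.36 (SE), edgeR adjusted p = 2.58e-07). Nr4a1 was likewise higher in both (log2 difference 2.58 ± 0.29 (SE), edgeR adjusted p = 3.48e-08 and log2 difference 2.61 ± 0.30 (SE), edgeR adjusted p = 7.88e-08). Atf3, at 95.3 CPM, was lower than in macrophages at 821 CPM (log2 difference −3.52 ± 0.38 (SE), edgeR adjusted p = 2.73e-08). By library the list summed to 18678 to 46867 CPM in the protease-rich cells, against 18738 to 23999 CPM in macrophages. The macrophage range lay inside that of the mast cells. WT pup 1 was lowest among the mast cells. Cells that met the connective tissue rule gave 12965 and 9711 of its 27359 protease-rich UMIs.

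**Figure D4:**
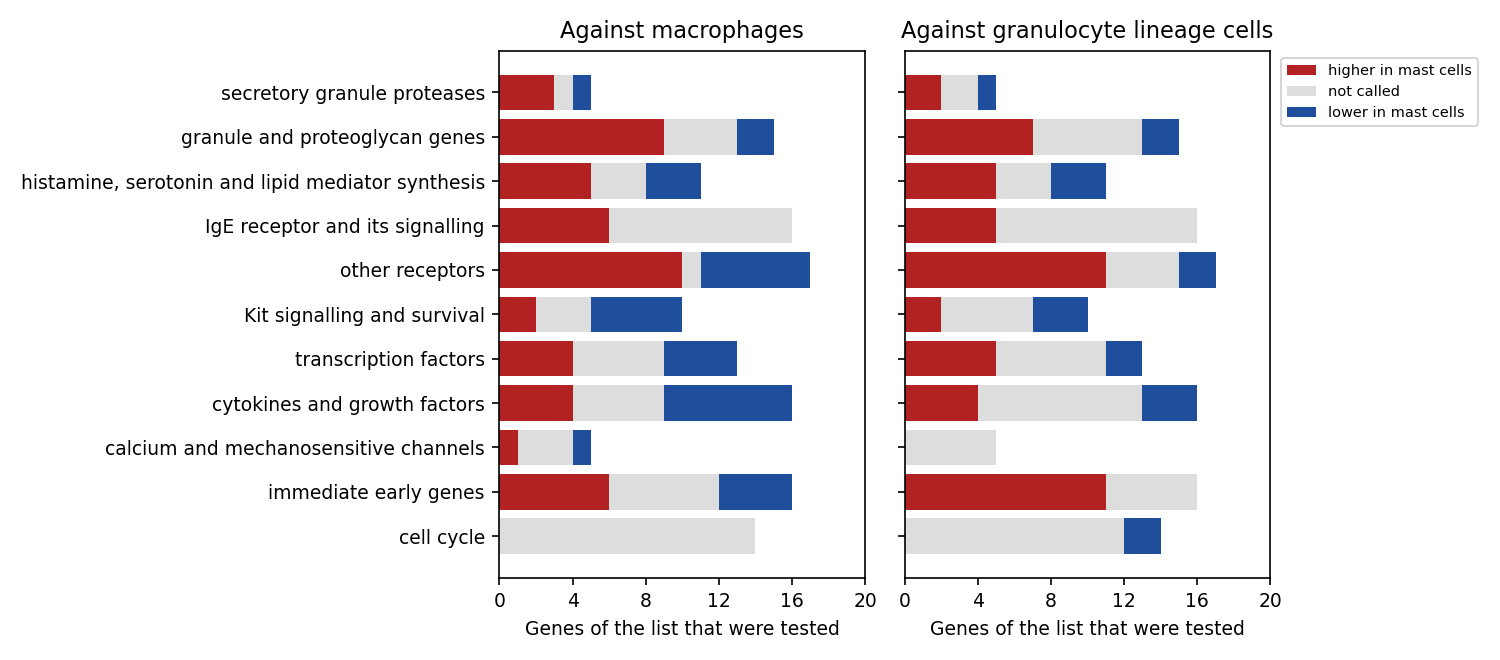
Bars count the genes of each listed group that were tested with edgeR and were higher (red), not called (grey) or lower (blue) in the 57 members than in macrophages (left) or granulocyte lineage cells (right). Immediate early genes split 6 against 4 relative to macrophages and 11 against 0 relative to granulocyte lineage cells; the background share of calls was 11.6% and 19.2% on the left and 11.9% and 14.8% on the right.

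Transcripts of dividing cells were found together in few of the protease-rich cells. Of 8 genes of division (Mki67, Top2a, Cdk1, Ccnb1, Ccnb2, Cenpf, Ube2c and Birc5), at least 4 gave UMIs in 6 of the 51 protease-rich cells, whose median depth was 10910.5 UMIs against 7174 in the rest, and in 5 of the 6 others. Mki67 stood at 183 CPM in the 51 cells and at 523 CPM in the 6. Of 14 listed cell cycle genes tested, edgeR called 0 against macrophages (median −0.57), with 1 at an unadjusted p under 0.05, and DESeq2 also called 0. With the 51 cells 1 was lower than in macrophages and 3 than in granulocyte lineage cells. With all 57 members 2 of the 14 were lower than in granulocyte lineage cells (median −0.85), near the 14.8% of all genes tested, among them Rrm2, a subunit of ribonucleotide reductase (log2 difference −2.59 ± 0.51 (SE), edgeR adjusted p = 0.000345).

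Of the 5 markers listed for basophils, Prss34 was the highest in the protease-rich cells, at 1494 CPM in 26 of the 51. Cd200r3, a receptor of mast cells and basophils, stood at 609.8 CPM and Itga2, an integrin gene, at 202 CPM, while Mcpt8 gave 4 UMIs. Of these 5 markers 4 were tested, and all 4 were higher than in macrophages and 3 higher than in granulocyte lineage cells. Ifitm1, 1 of the 4, drew 70 of its 80 UMIs from the 6 other members. With the 51 protease-rich cells 3 were tested and all 3 were higher in both comparisons. Prss34 gave 0 UMIs in both other classes, and Cd200r3 gave 1 in macrophages and 0 in granulocyte lineage cells. Such genes pass the filter through the mast cells, so that they were bound to differ. Over all genes tested with 57 members, 11.6% were higher than in macrophages and 11.9% than in granulocyte lineage cells. Mpo and Elane were higher in the 57 members than in macrophages (edgeR adjusted p = 0.00337 and 1.97e-05), and both gave 0 UMIs in the 51. Without WT pup 1 neither was called (0.222 and 1).

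Within the protease-rich cells the proteases varied together only in part. Across the 51 cells, which share 5 libraries and a common denominator, Spearman's rho of UMI shares was 0.45 for Cpa3 and Mcpt4, 0.46 for Cpa3 and Cma1 and 0.48 for Mcpt4 and Cma1. For Tpsb2 it was 0.04 with Cpa3, 0.31 with Mcpt4 and 0.47 with Cma1, and for Hdc and Il1rl1 it was 0.52. These values describe the cells and were not tested.

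Cells with many Ctsg UMIs and cells with many Prss34 UMIs were mostly different cells, a pair and limits chosen after the values were seen. With a limit of 10 UMIs, 11 cells held Ctsg only, 19 held Prss34 only, 1 held both and 20 held neither. The margins of these counts alone would put 4.71 cells in both. With a limit of 5 UMIs the numbers were 13, 18, 4 and 16, with 7.33 cells in both from the margins. At 1 UMI, 15 of the 26 cells with Prss34 also gave Ctsg, which 36 of the 51 held, against 18.4 from the margins. Cells with both were thus fewer than the margins gave at each limit, though at 1 UMI most Prss34 cells also gave Ctsg. Spearman's rho of the UMI shares of Ctsg and Prss34 was −0.34 over the 51 cells and was not tested. At 10 UMIs both kinds occurred side by side in WT pup 2 (7 and 9 cells), mutant pup 3 (2 and 8) and mutant pup 4 (2 and 1), while WT pup 1 held 1 Prss34 cell and mutant pup 5 neither kind. At 5 UMIs mutant pup 4 held 2 and 2 and mutant pup 5 held 1 Ctsg cell. The Ctsg cells had a median of 6720 UMIs and the Prss34 cells 8610. Cpa3 stood at 52559.9 CPM in the first and 40663 CPM in the second, and Mcpt4 at 43400.5 and 47681 CPM. Of the Ctsg cells 0 of 11 met the connective tissue rule and of the Prss34 cells 4 of 19, with Col1a1 at 923 and 13505 CPM. Without those 4, Cpa3 stood at 46527 CPM and Mcpt4 at 52381 CPM in the Prss34 cells.

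**Figure D5:**
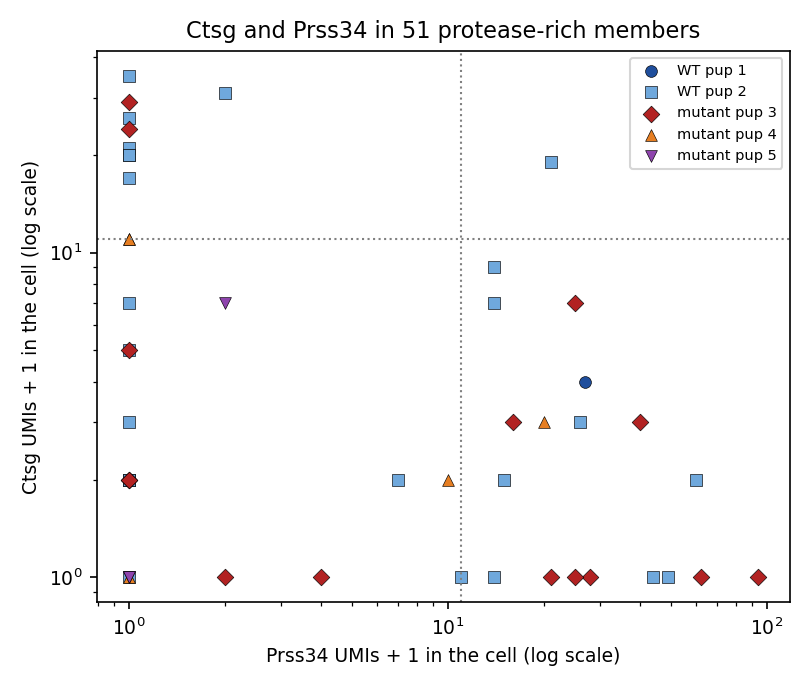
Each point is 1 of the 51 protease-rich members, with Prss34 UMIs + 1 on the x axis and Ctsg UMIs + 1 on the y axis (log scales, dotted lines at 10 UMIs). Counting points on a line as past it, 1 cell lies in the upper right field, 11 in the upper left and 19 in the lower right.

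The 10 most variable genes, by variance over mean of UMIs per 10000 beyond counting noise across the 57 members, were Col1a1, Col1a2, Mcpt4, Cpa3, Fos, Sparc, Col2a1, Col3a1, Zfp36 and Ccl7. Most Col1a1 UMIs came from few cells. The 6 protease-rich cells that also met the connective tissue rule held 102 to 1439 Col1a1 UMIs, and the other 45 held 1 to 29. The 6 had a median of 12451.5 UMIs against 6943 and held Cpa3 at 26524 CPM against 47640 CPM. Col1a1 over all members fell from 7068 CPM to 808 CPM without the 7 members that met the rule of another class. No doublet caller was run, and the part of doublets in these values was not tested. Zfp36, which destabilises cytokine transcripts, ranged from 950.3 to 7757 CPM by library and Fos from 439 to 5005 CPM, with WT pup 1 lowest for both. In WT pup 1, cells that met the connective tissue rule gave 12965 and 9711 of the 27359 protease-rich UMIs.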

How the data were processed

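RNA of single cells from 5 pups was captured on BD Rhapsody, 1 library per pup. The files hold UMI counts per gene and cell, as the authors deposited them. The genome build in the submitters' processing notes is mm10, and the annotation and counting settings are not given in the sources used here. Cells with 200 to 6000 detected genes and at most 10% mitochondrial UMIs were kept (82516 of 84382 barcodes). Medians were 6000 to 9261 UMIs per kept cell by library.

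Mast cells were compared with macrophages (at least 5 UMIs of C1qa, C1qb and C1qc and 1 of Csf1r) and granulocyte lineage cells (at least 20 UMIs of S100a8 and S100a9 and 2 of Csf3r, Ngp, Camp, Ltf, Mpo and Elane) of the same pups, under the same Col2a1 limit. Counts were summed per pup and class, all with at least 3 cells, and were tested in edgeR 4.0.16 (quasi-likelihood, TMM, filterByExpr, pup as a block, adjusted p under 0.05) in R 4.3.3. Mast cells and both other classes were filtered and fitted together, so a gene high only in the class not compared could be among those tested. The genes that chose a class stayed in the fit and the adjustment. They were left out of the counts of genes tested and called. Pups are the replicates and the block. The p-values therefore measure how far class differences vary over the 5 pups, not the spread between pups within the mast cells. Genotype was not tested. Values marked SE were back-calculated as the size of the log2 difference over the square root of the F statistic. Levels are CPM of summed UMIs. A gene at 0 was given a floor of 3 counts over the class, and list medians with such genes at their bound were the same. Shares between classes used cells thinned to 2000 UMIs. No doublet caller was run, and members meeting the rule of another class were counted. Intervals and floors cover counting error only.

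The members and lists were chosen with earlier results of these data known. Named genes were the 20 leading genes, listed genes by role, the 5 largest called differences in each direction with at least 50 CPM in the higher class, and the 10 most variable genes. Alternatives were DESeq2 1.42.0, other size factors, filters, limits of the rule and leaving out each pup. The restriction to members with Mcpt4 and Cma1 UMIs, the protease-rich share without each library and the Prss34 cells without those meeting the connective tissue rule were added after seeing the data. Upstream sequences came from RefSeq, GRCm38.p6. Scripts ran in Python 3.11.15 with numpy 2.4.6, scipy 1.17.1 and pandas 2.3.3 and were tested on simulated data.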

Additional observations from a re-analysis of the deposited data

How the results depend on the processing

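The share of kept cells that were mast cells lay between 0.0470% and 0.0805% for all members, and between 0.0394% and 0.0712% for the protease-rich cells, on leaving out 1 library, the lowest of each without WT pup 2. On leaving out each pup, 381 to 640 genes were higher and 625 to 1088 lower than in macrophages, and 290 to 591 were higher and 419 to 1039 lower than in granulocyte lineage cells. The lowest of each was without WT pup 2 and the highest of each without WT pup 1. With no filter on low counts 1747 genes were lower than in macrophages and 1230 lower than in granulocyte lineage cells, over 19966 and 19962 genes tested. With only the classes compared in the fit, 2032 genes were tested against granulocyte lineage cells and 310 were higher and 366 lower. Without the pup as a block, 633 genes were higher and 957 lower than in macrophages and 614 and 742 than in granulocyte lineage cells. The replicate numbers of WT and mutant pups mark different animals and pair nothing. Of 94 single gene differences under 1294 alternatives, 1264 kept their direction and call, 28 lost the call and 2 turned. Both turned values were Elane against macrophages, at −0.89 with at least 20 protease UMIs and −0.46 with Mcpt4 and Cma1 UMIs, where 4 or all 6 of the protease-poor members are left out. Levels of 55 genes moved by less than the spread between libraries in 549 of 550 alternatives. With all members that spread is wide, for Tpsb2 from 4321 to 21104 CPM, and easy to stay within. Tpsb2 stood at 16178 CPM in all members and 20597 CPM in the protease-rich cells. Thinning to 2000 UMIs moved the share of cells with a UMI for 31 of the 55. Counts of 0 in 57 cells limit a gene to 5.61 CPM, and with 3 protease-rich cells in each of 2 libraries their values rest on few cells.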
